A study of Mus musculus with 8 samples.

Results

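The GABA-B receptor genes Gabbr1 and Gabbr2 and the genes of their KCTD auxiliary subunits, Kctd8, Kctd12 and Kctd16, were followed in total RNA of adult mouse retinae. These 5 genes were picked by symbol out of the 18058 genes of the deposited table, and each symbol matched 1 gene. The group was selected on the lower normalized count of Kctd16 in the quadruple KO, so the values of Kctd16 are given as a description without a test, and the other 4 genes were included as its partners in the receptor complex. The retinae came from 4 WT mice and 4 quadruple KO mice, and the libraries of each genotype carry the letters A to D. WT mice belonged to the inbred background strain 129S2/SvPasCrl. The quadruple KO carried knockout constructs of Bcan, Ncan, Tnc and Tnr, brought together by crossing single KO lines, and these genes encode the extracellular matrix proteins brevican, neurocan, tenascin-C and tenascin-R. The constructs were carried in the whole animal, and no group received an agent. The mice were adults of both sexes, and the methods mention pooling of retinae under tissue collection for RT-PCR, without saying whether it applied to the sequenced libraries. The sex, the age in weeks and the number of retinae behind each library were not given in the sources used here.

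GABA-B receptors are G protein-coupled receptors for GABA that work as obligate heterodimers, in which GABBR1 binds the transmitter and GABBR2 couples to the G protein. The released beta-gamma dimer opens GIRK potassium channels and inhibits presynaptic calcium channels, whereas the Gi/o alpha subunit inhibits adenylyl cyclases. KCTD8, KCTD12, KCTD12b and KCTD16 bind the tail of GABBR2 as oligomers, also bind the G protein beta-gamma dimer and shape how fast and for how long the receptor responds. KCTD12 and KCTD12b make the response desensitize. In the retina, GABA is the transmitter of many amacrine cells and of horizontal cells, and GABA-B receptors take part in slow inhibition.

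The KCTD paralogs are similar in sequence, which matters for how reads are shared among them, so their coding sequences were compared first. In the canonical transcripts of GENCODE vM39, Kctd8 encodes 476 residues, Kctd16 encodes 427, Kctd12 encodes 327 and Kctd12b encodes 292. Over the aligned coding bases, identity was 70.8% between Kctd8 and Kctd12, 67.8% between Kctd8 and Kctd16, and 67.6% between Kctd12 and Kctd16. The longest run of identical bases in the transcripts was 22 between Kctd8 and Kctd12, 26 between Kctd8 and Kctd16, 14 between Kctd12 and Kctd16, and 48 between Kctd12 and Kctd12b. Gabbr1 and Gabbr2 were 61.5% identical, with a longest shared run of 43 bases. The lines below give the 120 coding bases in which Kctd8 and Kctd12 were most alike, and the stretch of Kctd12b that matched them best. They are written 5′ to 3′ on the coding strand of GRCm39, at chr5:69497793-69497912, chr14:103219025-103219144 and chrX:152471935-152472054, each on the minus strand. Capitals mark bases that differ from Kctd8, of which there were 24 in Kctd12 and 34 in Kctd12b.
Kctd8: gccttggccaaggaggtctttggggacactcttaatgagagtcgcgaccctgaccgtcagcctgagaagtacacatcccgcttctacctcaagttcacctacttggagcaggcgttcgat
Kctd12: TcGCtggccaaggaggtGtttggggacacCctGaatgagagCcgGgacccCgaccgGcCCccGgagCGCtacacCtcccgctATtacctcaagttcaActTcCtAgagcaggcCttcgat
Kctd12b: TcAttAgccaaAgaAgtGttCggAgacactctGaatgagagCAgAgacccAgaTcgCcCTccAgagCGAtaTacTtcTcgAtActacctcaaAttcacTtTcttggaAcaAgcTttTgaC

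The promoters of Kctd8 and Kctd12 are shown because these paralogs differed in opposite directions between WT libraries, as described further on. The 250 bases before the start were taken from RefSeq (GRCm38.p6), in which 4 of the 5 genes were matched (Gabbr1, Gabbr2, Kctd8 and Kctd12), at chr5:69341710-69341959 and chr14:102982638-102982887 on the minus strand. Both strands were searched for 3 motifs, the cAMP response element TGACGTCA, the E-box CACGTG and the GC box GGGCGG. Capitals mark the response element and the GC boxes, including their reverse complements.
Kctd8 promoter: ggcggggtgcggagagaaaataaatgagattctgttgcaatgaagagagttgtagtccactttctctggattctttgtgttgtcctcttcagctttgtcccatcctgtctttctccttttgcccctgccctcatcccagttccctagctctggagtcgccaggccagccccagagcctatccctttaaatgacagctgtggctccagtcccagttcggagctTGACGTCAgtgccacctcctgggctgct
Kctd12 promoter: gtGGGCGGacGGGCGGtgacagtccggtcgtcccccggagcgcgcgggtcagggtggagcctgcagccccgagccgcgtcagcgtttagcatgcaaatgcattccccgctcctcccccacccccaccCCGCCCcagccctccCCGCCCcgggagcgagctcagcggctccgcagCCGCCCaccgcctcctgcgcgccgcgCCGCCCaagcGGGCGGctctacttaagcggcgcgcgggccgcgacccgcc
Kctd8 held 1 cAMP response element, a motif found in 1.55% of the 32851 promoters of this length, and no GC box. Kctd12 held 7 GC boxes, some of which lie close to each other, and at least 1 GC box was present in 32.7% of promoters. Gabbr1 and Gabbr2 each held 2 GC boxes, and no E-box, present in 6.02% of promoters, was found in the 4 genes. The number of CpG dinucleotides was 5 in Kctd8, 16 in Gabbr1, 36 in Kctd12 and 37 in Gabbr2, against a median of 6 over all promoters. A match is a description of letters in the window and not evidence of a bound factor.

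The estimated depth was 23.9 to 40.4 M reads in WT and 38.9 to 52.4 M in the quadruple KO. Libraries WT B and WT C stood apart from the other 6 along the first principal component, which held 50.9% of the variance. The 13 mitochondrial mRNAs made up 0.402% and 0.341% of the counts of WT B and WT C, against 1.28% to 1.64% elsewhere. Values are therefore also given with WT B and WT C left out. As a check of the labels, Ncan ranged from 569 to 789 normalized counts in WT and from 0 to 0.853 in the quadruple KO, Bcan from 197 to 327 against 11.5 to 22.1, and Tnr from 5578 to 6317 against 2374 to 2580. Tnc ranged from 881 to 1592 in WT and from 1024 to 1249 in the quadruple KO, so that its total over the gene did not separate the genotypes. Rod markers summed to 1.20 to 1.62 M normalized counts in WT libraries and 1.63 to 1.76 M in the quadruple KO, and 3 of these 7 genes had all quadruple KO libraries above all WT libraries, as 6.16% of all genes did.

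Kctd16, the auxiliary subunit by which the group was chosen, had 678, 690, 683 and 547 normalized counts in WT A to D and 537, 502, 423 and 472 in quadruple KO A to D. All quadruple KO libraries lay below all WT libraries, and the closest pair was WT D and quadruple KO A, with a gap of 10.3 normalized counts. This gap was smaller than the counting error of a single library, estimated at 3.83% to 5.06% of its value. WT averaged 650 ± 68.5 and the quadruple KO 483 ± 48.0 (SD, n = 4 libraries), or 74.4% of WT. On the scale of log2(normalized count + 1), the difference of the quadruple KO minus WT was −0.42 (SE 0.11), and it was −0.34 (SE 0.12) against WT A and WT D only. In these bulk samples, fewer cells that express a gene and less RNA per cell cannot be told apart.

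Gabbr1, the subunit that binds GABA, had 6363, 13023, 8715 and 5590 normalized counts in WT A to D and 5994, 5923, 5838 and 5803 in quadruple KO A to D. The quadruple KO libraries lay within a narrow band inside the range of WT, and the WT mean was raised by WT B and WT C, which averaged 1.82 times WT A and WT D. WT averaged 8423 ± 3342 and the quadruple KO 5890 ± 86.1 (SD, n = 4 libraries), with a log2 difference of −0.44 (SE 0.22, 95% confidence interval −0.94 to 0.07, limma adjusted p = 0.316). Against WT A and WT D only, the log2 difference was −0.02 (SE 0.06).

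Gabbr2, the subunit that couples to the G protein and holds the KCTD proteins, had 2774, 3197, 3351 and 2728 normalized counts in WT A to D and 2578, 2943, 2601 and 2492 in quadruple KO A to D. The groups overlapped, since quadruple KO B exceeded WT A and WT D. WT averaged 3012 ± 309 and the quadruple KO 2653 ± 198 (SD, n = 4 libraries). The log2 difference was −0.18 (SE 0.09, 95% confidence interval −0.39 to 0.03, limma adjusted p = 0.314), and −0.05 (SE 0.07) against WT A and WT D only.

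Kctd8, the closest partner of Kctd16 in this set by its profile, had 946, 996, 1024 and 847 normalized counts in WT A to D and 809, 805, 836 and 784 in quadruple KO A to D. All quadruple KO libraries lay below all WT libraries, and WT D was again the lowest WT library, 11.3 normalized counts above the highest quadruple KO library. As for Kctd16, this gap was smaller than the counting error of a single library, here estimated at 2.9% to 4.2% of its value. WT averaged 953 ± 78.0 and the quadruple KO 809 ± 21.0 (SD, n = 4 libraries). The log2 difference was −0.23 (SE 0.08, 95% confidence interval −0.42 to −0.05), with an unadjusted limma p of 0.0173 and an adjusted p of 0.301 over all genes tested. Against WT A and WT D only, it was −0.15 (SE 0.07).

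Kctd12, the subunit that makes the receptor response desensitize, had 798, 554, 565 and 788 normalized counts in WT A to D and 748, 810, 821 and 790 in quadruple KO A to D. WT B and WT C lay below every other library at 0.706 of the mean of WT A and WT D, and the remaining WT libraries lay within the range of the quadruple KO. WT averaged 676 ± 135 and the quadruple KO 792 ± 32.1 (SD, n = 4 libraries). The log2 difference was 0.25 (SE 0.14, 95% confidence interval −0.06 to 0.55, limma adjusted p = 0.327), and −0.0018 (SE 0.06) against WT A and WT D only, so that its sign rested on WT B and WT C.

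**Figure D1:**
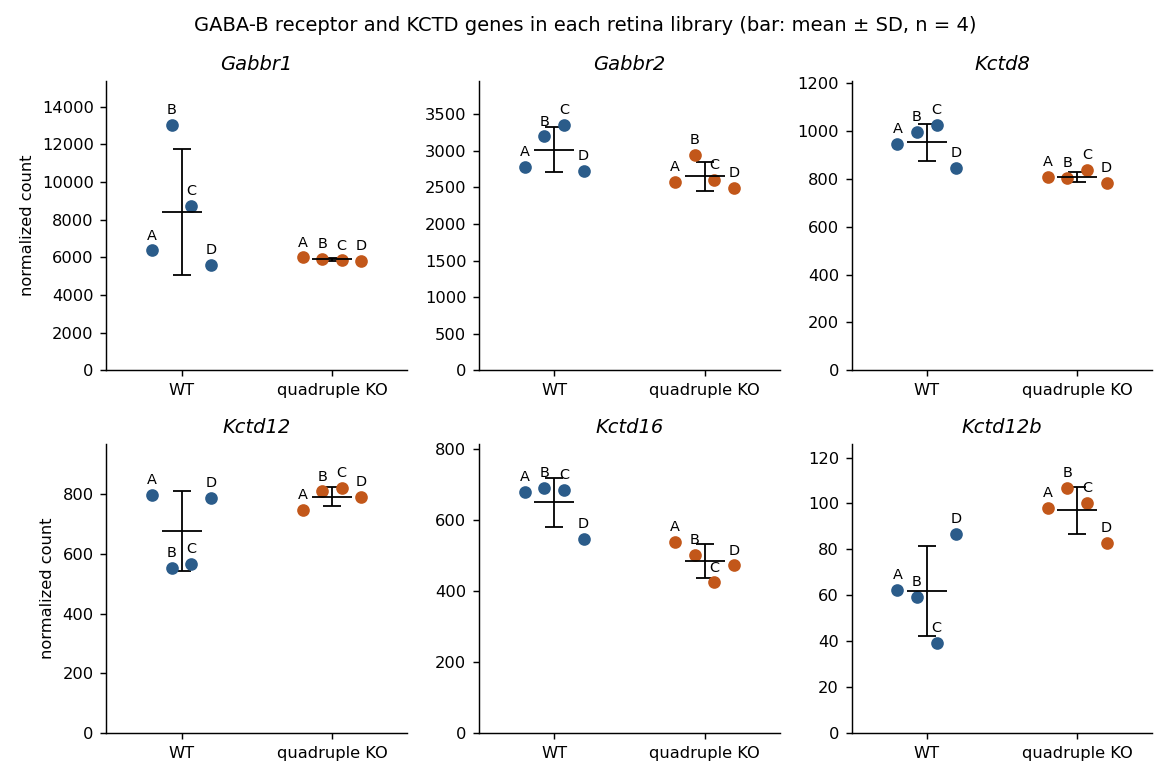
Normalized counts (vertical axis, from 0, with its own scale in each panel) of the 5 genes and of Kctd12b in each retina library, with WT in blue and quadruple KO in orange, letters naming the libraries, and bars for mean ± SD (n = 4). All quadruple KO libraries lie below all WT libraries for Kctd8 and Kctd16, and WT B and WT C set the spread of WT for Gabbr1 and Kctd12.

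None of the 4 partners of Kctd16 passed an adjusted p of 0.05 (0 of 4, limma), where 0.437% of the 17636 genes tested did, 0.176% with a lower and 0.261% with a higher level in the quadruple KO. At an unadjusted p under 0.05, 1 of the 4 was counted (Kctd8), against 16.6% of all genes. Kctd8 was also the only 1 of the 4 whose quadruple KO libraries all lay below the WT libraries, a pattern shown by 3.58% of all genes, and in none of the 4 did they all lie above, as in 6.16% of all genes. Permutation of the normalized counts (exact, two-sided) gave p = 0.143 for Gabbr1, 0.143 for Gabbr2, 0.0286 for Kctd8 and 0.200 for Kctd12. The smallest p that 4 libraries against 4 allow is 0.0286, and after Benjamini-Hochberg adjustment over these 4 tests the value of Kctd8 in the exact permutation test was 0.114. The median log2 difference of these 4 genes was −0.21, against −0.00018 over all genes tested, and it was −0.037 without WT B and WT C.

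**Figure D2:**
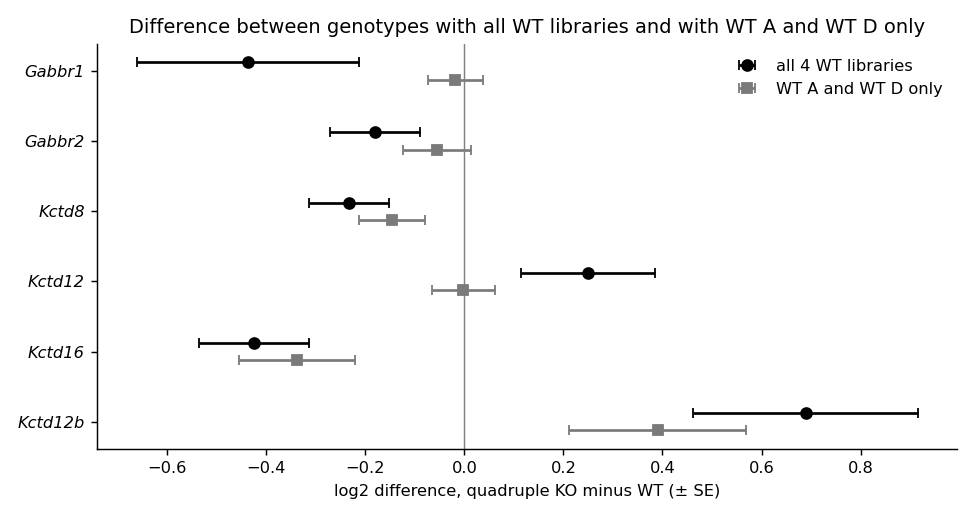
Log2 difference of the quadruple KO minus WT (horizontal axis, ± SE) for the 5 genes and Kctd12b, with all 4 WT libraries (black circles) and with WT A and WT D only (grey squares). Kctd16 stays at −0.34 with the smaller WT group, whereas Gabbr1 and Kctd12 move to −0.02 and −0.0018.

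The paralog Kctd12b, on the X chromosome, was the least abundant of the clade. It had 62.1, 59.3, 39.2 and 86.8 normalized counts in WT A to D and 98.2, 107, 100 and 82.9 in quadruple KO A to D, which rest on an estimated 26.4 to 145 reads per library. WT D lay among the quadruple KO libraries, and the groups overlapped. The log2 difference was 0.69 (SE 0.23, limma adjusted p = 0.301), and 0.39 (SE 0.18) against WT A and WT D only.

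Normalized counts per kb of exon place the genes in an order of level. In WT it ran from Gabbr1 (898 ± 357) and Gabbr2 (364 ± 37.4) to Kctd8 (280 ± 22.9), Kctd16 (187 ± 19.7), Kctd12 (112 ± 22.3) and Kctd12b (12.05 ± 3.80; SD, n = 4 each). No neighbours in this order overlapped in WT, since Kctd16 ranged from 157 to 198 per kb and Kctd12 from 91.5 to 132. In the quadruple KO, Kctd16 (139 ± 13.8, from 122 to 154) and Kctd12 (131 ± 5.29, from 124 to 136) overlapped in level per kb, and the order of the others was the same. Among Kctd8, Kctd12 and Kctd16, the share of Kctd16 per kb was 29.4% to 34.1% in WT and 24.2% to 29.95% in the quadruple KO, so that the ranges overlapped.

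Ratios within a library set the subunits against their receptor without reference to other libraries. For each 100 normalized counts of Gabbr2, Kctd16 had 21.6 ± 1.99 in WT and 18.3 ± 2.03 in quadruple KO libraries (SD, n = 4). The groups overlapped in this ratio, with 20.1 in WT D below 20.8 in quadruple KO A. Kctd8 had 31.7 ± 1.60 per 100 of Gabbr2 in WT and 30.6 ± 2.17 in the quadruple KO, a difference smaller than either SD. Kctd16 had 68.1 ± 3.08 per 100 of Kctd8 in WT and 59.9 ± 6.64 in the quadruple KO, again with overlap. The ratio of Gabbr1 to Gabbr2 was 2.75 ± 0.908 in WT, with 4.07 in WT B, and 2.23 ± 0.149 in the quadruple KO.

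WT B and WT C lay both above or both below the other 6 libraries in all 5 genes. They lay above in Gabbr1, Gabbr2, Kctd8 and Kctd16 and below in Kctd12, whereas over all genes tested they lay above in 28.2% and below in 27.6%. For Kctd16 the step was small, from 678 normalized counts in WT A to 683 in WT C. It was below the counting error of a single library, estimated at 3.83% to 5.06%. The quadruple KO libraries spread less than the WT libraries over all genes, with a median SD on the log2 scale of 0.10 against 0.26. Among the 5 genes, Kctd16 was the one whose spread was most alike in the genotypes, with a coefficient of variation of 9.94% in the quadruple KO and 10.6% in WT.

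**Figure D3:**
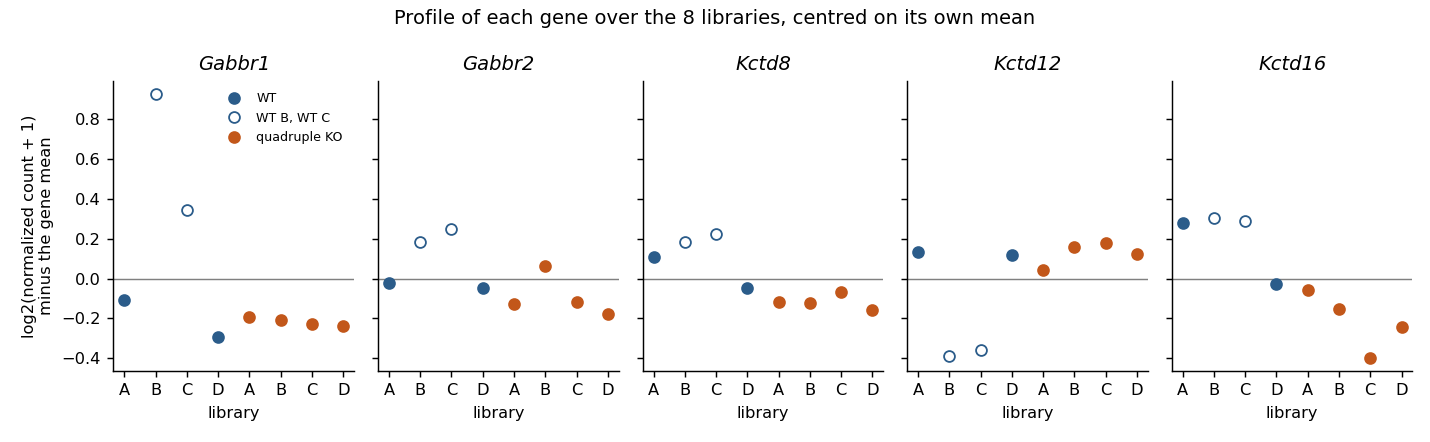
Log2(normalized count + 1) of each gene in each library minus the mean of that gene over the 8 libraries, with WT in filled blue, WT B and WT C in open blue, and quadruple KO in orange. WT B and WT C are the highest libraries in 4 of the 5 genes and the lowest in Kctd12.

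Profiles were compared by the root mean square difference between centred log2 values over the 8 libraries, as a description. The gene most like Kctd16 was Cnp, an enzyme of myelin and other cells, at 0.041, with 699, 707, 718 and 550 normalized counts in WT libraries and 558, 517, 472 and 494 in the quadruple KO. It shared with Kctd16 the low value of WT D. Egfem1 (0.074), Tmem51 (0.079), Sptbn4 (0.083), which encodes a spectrin of the axon initial segment, and the long noncoding RNA Kantr (0.085) followed. Kctd8 ranked 187 at 0.14 and Gabbr2 ranked 667 at 0.17, whereas Gabbr1 and Kctd12 were at 0.29 and 0.44. The profile of Kctd8 was nearer to that of Gabbr2 (0.083) than to that of Kctd16.

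For the partners, the most alike profiles were Nudt7 (0.053) and Psph (0.058) for Gabbr1, Disp3 (0.033) and Slc9a3r2 (0.042) for Gabbr2, Clcn4 (0.023) and Mthfd1l (0.035) for Kctd8, and Aff4 (0.026) and Luc7l2 (0.031) for Kctd12. Luc7l2 illustrates the pattern of Kctd12, with 5647, 3887, 3961 and 5598 normalized counts in WT A to D and 5368 to 5574 in the quadruple KO. Psph illustrates that of Gabbr1, with 1032 in WT B, 703 in WT C and 427 to 487 in the other libraries.

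Each gene lies at its own locus in GRCm39 (GENCODE vM39). Gabbr1 lies at chr17:37356703-37387265 on the plus strand, Gabbr2 at chr4:46662244-46991971, Kctd8 at chr5:69266628-69499057 and Kctd12 at chr14:103214017-103220073 on the minus strand, and Kctd16 at chr18:40390015-40664683 on the plus strand. Reads counted for these genes come from exons of the annotated transcripts. Genes of the table that overlap them on the same strand were low and lay within introns. They were Gm50403 in Kctd16, with a mean of 45.2 normalized counts, and Gm43373, Gm43374, Gm43230, Gm43229 and Gm42888 in Kctd8, with means of 13.4 to 70.1.

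Genes that start within 1 Mb of each gene were read in the same fit. None of them was called by limma, out of 11 around Gabbr1, 15 around Gabbr2, 7 around Kctd8, 7 around Kctd12 and 4 around Kctd16. The nearest tested gene on each side, by the distance between starts, is named here. Around Kctd16 these were Yipf5, a Golgi membrane protein gene, with a log2 difference of −0.10 (SE 0.11), and Gm50403 with 0.21 (SE 0.52). Both changed sign against WT A and WT D only. Around Gabbr1 they were H2-M5 (−0.78, SE 0.28) and H2-M3 (−0.36, SE 0.33), around Gabbr2 Anks6 (−0.32, SE 0.16) and Tbc1d2 (−0.20, SE 0.16), and around Kctd8 Guf1 (0.05, SE 0.10) and Gm42888 (−0.37, SE 0.36). The neighbour with the largest difference, Col15a1 near Gabbr2, had −1.29 (SE 0.42, limma adjusted p = 0.301) and was named after its value was seen. The nearest called gene to Kctd16 was Kcnn2, a calcium-activated potassium channel gene, 5.01 Mb away with a log2 difference of −0.55, and the nearest to Gabbr1 was Gm10503 at 6.17 Mb, both named after their values were seen. For Gabbr2 and Kctd12 the nearest were 60.3 and 58.4 Mb away, and no gene was called on the chromosome of Kctd8. Of the 77 genes called, 12 lay on the chromosome of Kctd16 and 11 on that of Gabbr1. The chromosome of Gabbr2 held 1 and that of Kctd12 held 2. These counts were not set against the number of genes tested on each chromosome, and the cause of their distribution was not tested.

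**Figure D4:**
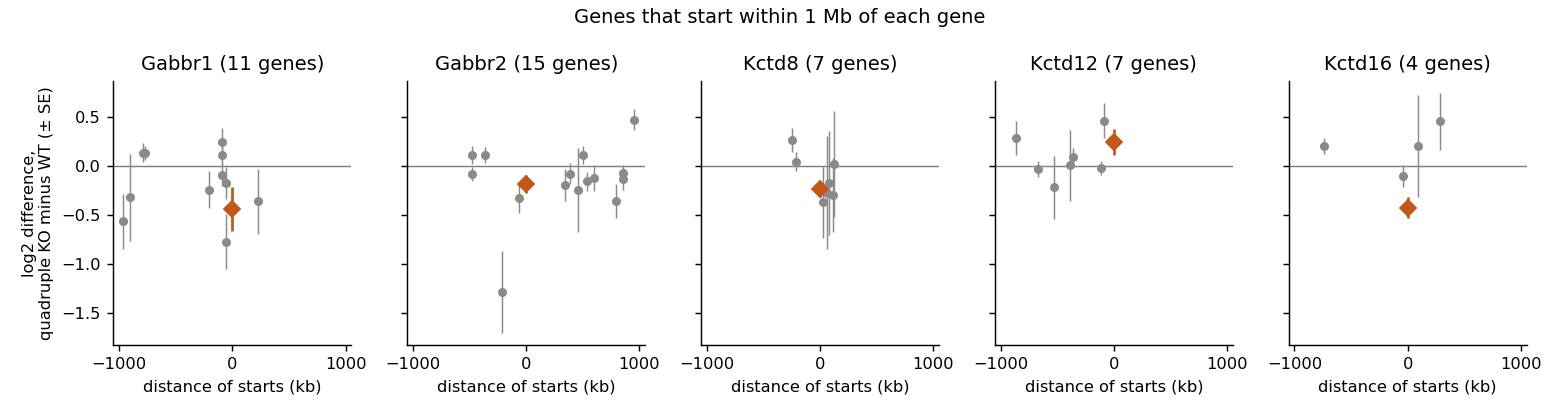
Log2 difference of the quadruple KO minus WT (vertical axis, ± SE) of genes that start within 1 Mb of each of the 5 genes, against the distance of starts in kb along the direction of transcription, with the gene itself as an orange diamond. None of the neighbours was called.

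The other genes of GABA-B signalling were read from 7 lists with 90 genes tested. Only Usp14 was called in them, 1.11% against 0.437% of all genes, and 20 of the 90 (22.2%) had an unadjusted p under 0.05 (limma), against 16.6% of all genes. WT B and WT C lay apart from the other libraries in 53 of the 90 (58.9%), against 55.9% of all genes.

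Among 15 genes of proteins associated with the receptor, Usp14 was called lower and none was called higher. By mean level, 8 were lower and 7 higher in the quadruple KO. An unadjusted p under 0.05 (limma) was found for 8 of the 15, against 16.6% of all genes. In these 8, except Pianp and Usp14, WT B and WT C lay apart from all other libraries. The quadruple KO libraries all lay below the WT libraries in 3 and all above in 1, against 3.58% and 6.16% of all genes. Usp14, a deubiquitinase of the proteasome, had 2790, 2557, 2508 and 2418 normalized counts in WT A to D and 1989, 1921, 1894 and 1914 in quadruple KO A to D. The groups were well apart, and WT B and WT C lay among the WT libraries. WT averaged 2568 ± 159 and the quadruple KO 1930 ± 41.4 (SD, n = 4 libraries), with a log2 difference of −0.41 (SE 0.07, limma adjusted p = 0.0379). The call was lost without any single library other than WT D, with adjusted p between 0.0713 and 0.203, and held against WT A and WT D only (adjusted p = 0.0218). Usp14 lies on chromosome 18, as Kctd16 does, and is among the 12 genes called there. The median log2 difference of the list was −0.01.

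Among the 21 other KCTD genes, which include adaptors of cullin ubiquitin ligases, none was called, 13 had a lower and 8 a higher mean, and the median log2 difference was −0.06. The smallest unadjusted p belonged to Kctd11 and Kctd9. Kctd11 had 57.1 to 78.3 normalized counts in WT libraries and 85.4 to 98.9 in the quadruple KO (log2 difference 0.47, SE 0.14, limma adjusted p = 0.301). Kctd9 had 435 to 909 in WT, highest in WT B and WT C, and 344 to 442 in the quadruple KO (log2 difference −0.75, SE 0.23).

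For the G proteins, 0 of 19 subunit genes tested were called, and Gng8 did not reach the minimum level. Gnao1, the main alpha subunit of Go in neurons, averaged 10262 ± 517 normalized counts over WT and 10502 ± 304 over quadruple KO libraries (SD, n = 4), a log2 difference of 0.03 (SE 0.06). The smallest unadjusted p values were those of the gamma subunits Gng2, with 1598 to 1867 in WT and 1132 to 1476 in the quadruple KO (log2 difference −0.38, SE 0.10), and Gng5, with 137 to 278 against 274 to 321 (0.60, SE 0.19).

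Of the 10 effector channels none was called, and none had an unadjusted p under 0.05 by limma. The GIRK subunits had log2 differences of −0.04 (SE 0.15) for Kcnj3, 0.03 (SE 0.09) for Kcnj5, −0.13 (SE 0.11) for Kcnj6 and −0.21 (SE 0.11) for Kcnj9. Kcnj9 was the most abundant of them, with 2447 to 3402 normalized counts in WT libraries and 2451 to 2840 in the quadruple KO. Hcn3, which encodes a hyperpolarization-activated cation channel, had a log2 difference of 0.21 (SE 0.11).

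No call was made among 9 adenylyl cyclases, 8 RGS proteins, which speed up the shut-off of G proteins, or 8 genes of GABA synthesis, transport and breakdown. Rgs2 had 1057 to 2006 normalized counts in WT libraries and 906 to 1007 in the quadruple KO without overlap (log2 difference −0.56, SE 0.18, limma adjusted p = 0.301), and Rgs7, of the ON bipolar cascade, had 0.20 (SE 0.08). The cyclases Adcy5 and Adcy6 had −0.25 (SE 0.11) and −0.16 (SE 0.08). The GABA-synthesizing enzyme gene Gad1 had 9049, 16050, 14384 and 7888 normalized counts in WT A to D and 8296 to 8763 in the quadruple KO, and the GABA transporter gene Slc6a11 had a log2 difference of 0.24 (SE 0.12).

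**Figure D5:**
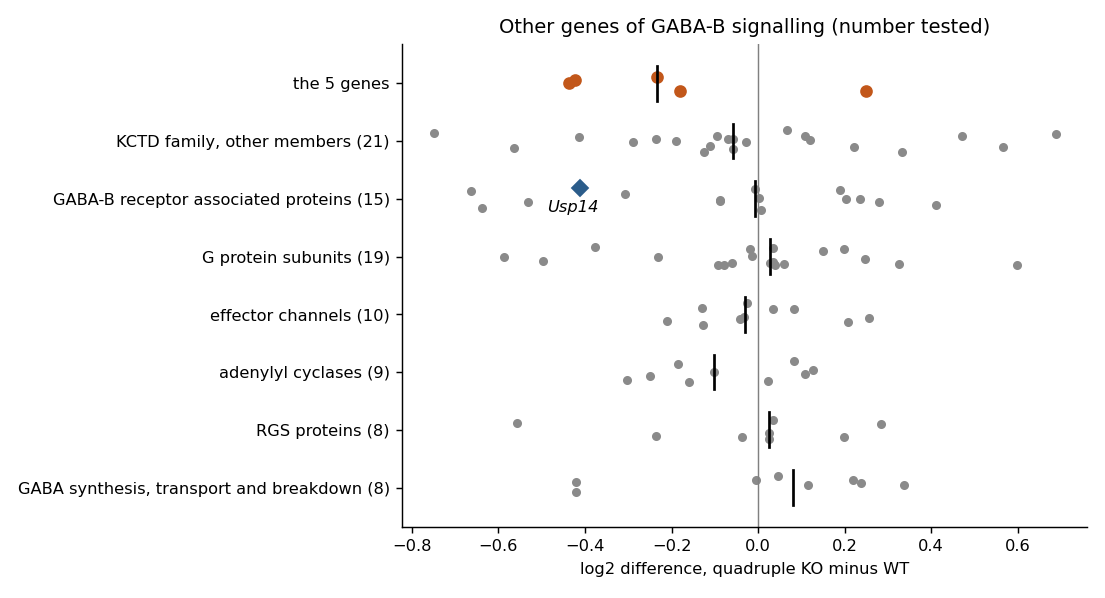
Log2 difference of the quadruple KO minus WT (horizontal axis) for the 5 genes (orange) and for the genes of 7 lists (grey, with the number tested), with a black line at each median and Usp14, the only called gene, as a blue diamond. The medians of the 7 lists lie between −0.10 and 0.08. The median drawn for the 5 genes includes Kctd16, by which the group was chosen, and that of the other 4 was −0.21.

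Markers of cell types that could carry these genes were read in the same fit. Of 8 retinal ganglion cell markers, 6 had a lower mean in the quadruple KO, none was called, and Rbpms, Nefl and Sncg had all quadruple KO libraries below all WT libraries, as 3.58% of all genes did. Their summed level ranged from 28652 to 31847 normalized counts in WT and from 23960 to 28642 in the quadruple KO. Nefl made up 54.3% of this sum in WT, and without it the ranges overlapped, at 12738 to 14747 and 11214 to 13835. Rbpms had 781 to 987 normalized counts in WT libraries and 565 to 730 in the quadruple KO (log2 difference −0.43, limma adjusted p = 0.297). Pou4f1 and Thy1 had higher means in the quadruple KO, with log2 differences of 0.29 and 0.05. The part of these cells in the differences of Kctd16 and Kctd8 was not tested. The 5 markers of GABAergic amacrine cells summed to 30305 to 54949 in WT and 31915 to 33619 in the quadruple KO, and the 5 of starburst amacrine cells to 3003 to 3719 and 3430 to 3793, so that both ranges overlapped. The 5 horizontal cell markers summed to 6573 to 7948 in WT and 8157 to 8369 in the quadruple KO, and the 4 endothelial markers to 818 to 987 and 591 to 792, of which Vwf, named after its value was seen, was the only called marker. Without Vwf, the endothelial sums overlapped, at 589 to 756 in WT and 521 to 737 in the quadruple KO, and Pecam1 and Cdh5 had higher means in the quadruple KO. Tfap2b made up 63.7% of the horizontal cell sum in WT, and without it the sums overlapped, at 2461 to 2816 and 2600 to 2702, while Lhx1 and Calb1 had lower means in the quadruple KO. The remaining lists, of cones, rod bipolar cells, Mueller glia, pigment epithelium, lens, microglia, fibroblasts and oligodendrocytes, had no called gene and summed levels that overlapped between the genotypes.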

How the data were processed

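Total RNA of 4 WT and 4 quadruple KO retina samples was sequenced by the authors from NEBNext directional libraries. Per the labels and methods, reads were trimmed (Trim Galore 0.6.7), aligned to GRCm39 (STAR 2.7.9a) and quantified per gene (Salmon 1.5.2). The authors deposited normalized counts, that is, estimated counts divided by the size factors of DESeq2 1.32.0 (R 4.1.1), in 1 table of 18058 genes. The table also holds the authors' fold changes and p-values, which were not used. Transcript-based estimation can divide reads between similar paralogs.

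The 17636 genes whose mean reached 10 normalized counts were tested on log2(value + 1) with limma 3.58.1 in R 4.3.3 (trend on the mean), without covariates, with Benjamini-Hochberg adjustment and calls at an adjusted p under 0.05. The design named a count model for raw counts, which these values are not. Exact permutation tests used scipy 1.17.1, sequence alignments biopython 1.88 and plots matplotlib 3.10.9. The fit was tested on simulated data with known changes. Depth was estimated from the spacing of low values, of which 47.2% to 70.7% fell on multiples of 1 read, too few to recover whole reads. Counting errors are estimates that cover counting only. The labels do not tie libraries to a batch, and p-values measure the spread between these samples.

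The genes, lists and alternatives were chosen with earlier results of these data known. The genes named were the 5 members, Kctd12b, the 4 targeted genes, the GIRK subunits and Gnao1, the called genes of each pathway list or, with none, the 2 with the smallest p, the called or nearest genes within 1 Mb, and the genes of most alike profile (5 for Kctd16, 2 for each other member). Some genes that this rule names are not reported here.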

Additional observations from a re-analysis of the deposited data

Results flagged for a closer look

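The lowest WT library of Kctd16, WT D, had 547 normalized counts, while the other WT libraries had 678 to 690. Its gap to the nearest of them was 0.916 of the whole WT range, above Dixon's 95% critical value for 4 samples, which describes the spread within WT and does not compare the genotypes. Chance alone marks about 1 in 20 groups, and 10 groups of 4 libraries were examined. WT D was also the lowest WT library for Gabbr1, Gabbr2 and Kctd8, without passing this criterion. Without WT D, the log2 difference of Kctd16 was −0.50, against −0.42 with all libraries.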

How the results depend on the processing

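None of the 4 partners of Kctd16 was called (limma) under any of the 18 alternatives. The log2 differences of Gabbr1, Gabbr2, Kctd8 and Kctd16 kept their sign in all of them, with Gabbr1 at −0.018 against WT A and WT D only. In Kctd8 and Kctd16 all quadruple KO libraries lay below all WT libraries, so leaving out libraries could not turn their sign. When 1 library was left out, the log2 difference of Kctd16 ranged from −0.50 to −0.36 and that of Kctd8 from −0.29 to −0.20. The ranges were −0.23 to −0.13 for Gabbr2, −0.61 to −0.20 for Gabbr1 and 0.16 to 0.34 for Kctd12. Leaving out both WT B and WT C turned Kctd12 to −0.0018, Gad1 to 0.0028, Gm50403 to −0.83, Gnao1 to −0.013, Guf1 to −0.057, Luc7l2 to −0.034, Psph to 0.054, Tnc to 0.25 and Yipf5 to 0.099. Array weights moved Gabbr1 from −0.44 to −0.13, Gabbr2 from −0.18 to −0.073 and Kctd12 from 0.25 to 0.034, and with them Gm50403 turned to −0.59, Gnao1 to −0.030, Guf1 to −0.064, Tnc to 0.13 and Yipf5 to 0.038. With 1 library left out, signs turned within ranges of −0.23 to 0.60 for Gm50403, −0.014 to 0.11 for Guf1, −0.14 to 0.057 for Kcnj3, −0.0084 to 0.066 for Kcnj5 and −0.23 to 0.052 for Tnc. The cause of these changes was not tested.

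The number of called genes, 77, became 143 with array weights, 51 with a replicate block and 93 without WT B and WT C, and ranged from 56 to 89 with 1 library left out. Among receptor-associated proteins, the count of 1 (Usp14) became 0 with quantile normalization, without the trend and with the replicate block, and ranged from 0 to 1 with 1 library left out, while the adjusted p of Usp14 (limma) ranged from 0.0013 to 0.256 over the alternatives. The deviations of same-lettered libraries correlated between −0.11 and 0.098, and only letter C correlated best with its own. These correlations showed no pairing by letter but cannot exclude it, since the deviations in WT also hold the split of WT B and WT C. The replicate block changed no other call among the genes named by the rule. With 4 libraries per genotype, the widest 95% interval among the partners was that of Gabbr1, −0.94 to 0.07.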

Other observations

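A noncoding gene on the same strand starts 8.16 kb after the end of Kctd16 and, in GENCODE vM39, carries the symbol Kctd16 as well, while the deposited table lists it as C030017B01Rik. It was named after its values were seen. It had 476, 193, 219 and 470 normalized counts in WT A to D and 404, 451, 443 and 421 in quadruple KO A to D. WT B and WT C lay below every other library, at 0.436 of the mean of WT A and WT D, and the remaining WT libraries lay above the quadruple KO. The log2 difference of C030017B01Rik was 0.46 (SE 0.29, limma adjusted p = 0.371). This positive sign, opposite to that of the protein-coding Kctd16, rested on WT B and WT C.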
